A study of Mus musculus with 20 samples.

Results

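The extracellular matrix of fat is remodelled by secreted and membrane-bound metalloproteases, and 10 genes of this system were examined here in epididymal fat of obese mice. They were 3 tissue inhibitors of metalloproteases (Timp1, Timp2 and Timp3), 4 matrix metalloproteases (Mmp2, Mmp3, Mmp9 and Mmp14) and 3 proteases of the ADAMTS family (Adamts1, Adamts4 and Adamts5). Members were taken by gene symbol from the array annotation. All 10 of 10 were measured, each by 1 probe set, among 19505 genes with a symbol. The list was chosen from knowledge of the family with earlier results of these data in view, including differences between genotypes and relations to Adgre1, so genotype differences of members are given below as descriptions and the relations to Adgre1 are no independent support.

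All mice were male C57BL/6 animals homozygous for a floxed Tnf allele (TNF-α Flox/Flox). In 10 mice, called cre, 1 copy of LyzMcre, which is active in macrophages and also in neutrophils and other myeloid cells, directed deletion of Tnf, and 10 littermates without the transgene, called wt, kept it. Chow was fed up to week 10, followed by 18 weeks on purified high-fat food (fat gave 40% of calories), and whole epididymal fat pads were taken at 28 weeks. Each pad was hybridised to 1 array. The sample titles name 2 batches, with 5 mice of each genotype per batch, and do not say which step was batched.

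Matrix metalloproteases are made as zymogens and cut collagens, gelatins and other matrix proteins once their propeptide is removed. Mmp14 encodes a membrane-anchored collagenase which, with TIMP2 as a bridge, binds and activates the zymogen of the gelatinase MMP2. TIMPs block active metalloproteases. TIMP3 stays bound to the matrix and inhibits aggrecanases and ADAM17, the sheddase that releases TNF-α from the cell surface. ADAMTS1, ADAMTS4 and ADAMTS5 cleave proteoglycans such as aggrecan and versican, and in fat this system is known for its part in the growth of adipocytes and blood vessels.

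All values are log2 signals, so that a difference of 1 is 2-fold. Array medians lay between 6.49 and 6.58. The adipocyte gene Adipoq, at percentile 99.9 of mean signals, and the macrophage gene Adgre1, at percentile 94.0, were both well represented. Wt replicate 6 had the lowest mean correlation with the other arrays (0.949, against 0.966 for the next) and a mean of 16.80 for genes of seminal vesicle, where the remaining wt mice had 4.13 to 5.66. In all, 5 mice (wt replicates 4 and 6, cre replicates 2, 3 and 9) exceeded the rest of their genotype by over 1 log2 unit in a list of genes of another tissue. Mice that were high together were not set apart by this rule. Liver genes had means of 12.02, 11.71 and 11.16 in cre replicates 4, 10 and 1 and 11.11 in wt replicate 9. The wt median was 7.68 and the cre median 9.40. Tnf had means of 6.66 ± 0.69 in wt and 4.67 ± 0.43 in cre mice (SD, n = 10 each). In whole tissue, fewer cells of a type and less RNA per cell cannot be told apart. Levels of different genes are not compared, because probe sets differ in their response.

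Between genotypes, the 95% intervals of Adamts1 and Adamts5 lay above 0 (higher in cre mice) and that of Timp1 below, while the intervals of the other 7 members included 0. By limma with batch as a term, 0 of 10 members passed an adjusted p of 0.05, a threshold reached by 0.0045% of all probe sets. An unadjusted p under 0.05 was found for 3 of 10, against 6.29% of all probe sets. Those 3 also differed at least 1.5-fold, a rule that took 1.04% of all probe sets. For the higher direction 2 of 10 members stood against 0.383% of probe sets, and for the lower 1 of 10 against 0.662%. Nothing is read from these shares, since that contrast was in view when the members were listed. The median difference of the 10 members was −0.08, against 0.0034 over all probe sets.

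Timp1, the secreted inhibitor induced by cytokines and growth factors, ran in wt mice from 7.13 over a median of 8.26 to 11.11, and in cre mice from 4.45 over 7.25 to 9.13. The groups overlapped, with 8 of 10 cre values under the wt mean. The difference was −1.29 (95% interval −2.41 to −0.16), a 2.44-fold lower signal. It was −0.99 in batch 1 and −1.58 in batch 2. The highest wt values, 11.11 and 10.96, came from wt replicates 5 and 6, and the lowest cre value, 4.45, from cre replicate 9. The same wt mice had the lowest means of adipocyte genes, 14.92 and 14.34, below the range of 16.17 to 17.02 in the remaining wt mice. Without wt replicate 5 the Timp1 difference was −0.99, without wt replicate 6 it was −1.01 and without cre replicate 9 it was −0.95. Each of these omissions took Timp1 out of the 3 members with an unadjusted p under 0.05. Without the 5 mice with genes of other tissues it was −0.73. With the adipocyte list mean as a covariate it was −0.88.

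Timp2, which both inhibits proteases and takes part in activation of MMP2, showed little difference: wt values ran from 15.23 over 16.03 to 17.05 and cre values from 14.99 over 16.07 to 16.48. The difference was −0.15 (95% interval −0.63 to 0.33), with −0.38 in batch 1 and 0.08 in batch 2. Timp3 ran from 8.17 over 9.70 to 11.33 in wt and from 8.57 over 9.26 to 10.35 in cre mice, so the cre values lay inside the wt range. Its difference was −0.49 (95% interval −1.12 to 0.14). In batch 1 it was −1.03, where 4 of the 5 cre values lay below each wt value, and in batch 2 it was 0.05. The interaction of genotype and batch had an adjusted p of 0.705 by limma, and 0% of all probe sets passed for this term. Both the lowest (8.17) and the highest (11.33) wt values of Timp3 were in batch 2, the lowest from wt replicate 6, without which the overall difference was −0.69.

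Among matrix metalloproteases, Mmp2, the gelatinase made largely by stromal cells, ran in wt mice from 12.60 over 13.42 to 15.72 and in cre mice from 10.91 over 13.97 to 14.80. The genotype difference of Mmp2 was −0.03 (95% interval −0.98 to 0.93). Mmp14 ran from 9.46 over 9.89 to 12.01 in wt and from 8.06 over 10.03 to 11.02 in cre mice, with a difference of −0.35 (95% interval −1.06 to 0.37). Mmp3, the stromelysin that cleaves proteoglycans and activates other zymogens, ran from 6.27 over 7.51 to 10.08 in wt and from 6.03 over 7.82 to 9.91 in cre mice, a difference of −0.08 (95% interval −1.20 to 1.03). Mice of 1 genotype differed widely in both genes. Within genotype and batch the SD was 1.16 for Mmp2 and 1.38 for Mmp3, above that of 98.6% and 99.1% of all probe sets.

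Mmp9, the gelatinase stored in neutrophil granules and also made by macrophages, was dim, with medians at percentile 21.5 of the array in wt and 15.9 in cre mice. It ran from 4.01 over 4.61 to 5.80 in wt and from 3.93 over 4.17 to 7.33 in cre mice, and the difference was −0.09 (95% interval −0.79 to 0.62). The value of 7.33 belonged to cre replicate 9 and lay 2.55 above the next cre mouse. In that mouse the neutrophil list mean was 6.11, the highest of the cre mice, and the erythroid list mean was 10.11, against 5.82 to 6.72 in the other cre mice. Without it the Mmp9 difference was −0.41. The neutrophil markers themselves were mostly dim, from 3.87 for Camp to 8.43 for S100a8 on average, and the part of these cells in the Mmp9 signal was not tested.

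The members whose interval lay above 0 were the aggrecanase genes Adamts1 and Adamts5, which are neighbours on chromosome 16 (mm10, Adamts1 from 85793827 to 85803113 and Adamts5 from 85858157 to 85901125, with 55043 bases between them). Adamts5, the main aggrecanase of mouse cartilage, ran in wt mice from 12.12 over 13.74 to 14.09 and in cre mice from 13.78 over 14.38 to 15.01. All 10 cre mice lay above the wt mean, although the ranges overlapped. The difference was 0.82 (95% interval 0.37 to 1.27), with 0.60 in batch 1 and 1.03 in batch 2. It was 0.65 without wt replicate 6, which held the lowest value, and 0.84 without the 5 mice with genes of other tissues.

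Adamts1, a protease and inhibitor of blood vessel growth that also cleaves versican, ran from 7.54 over 8.42 to 9.31 in wt and from 8.39 over 9.13 to 10.15 in cre mice. Of the cre mice 9 of 10 lay above the wt mean. The difference was 0.82 (95% interval 0.27 to 1.37), and the batches gave 0.47 and 1.17. It was 0.71 when wt replicate 6 was omitted. At equal Adgre1 the differences of Adamts1 and Adamts5 were 0.82 and 0.83, at equal adipocyte list mean 0.76 and 0.70, and at equal progenitor list mean 0.88 and 0.86. Within genotype and batch the genes were related across the 20 mice with r = 0.54 (permutation p = 0.0277) and Spearman's rho = 0.60 (permutation p = 0.0149). The correlation was 0.38 without the 2 mice farthest from the Adamts1 median. With Adamts5 as the covariate of a limma fit over all probe sets, Adamts1 had an adjusted p of 0.141, where 1.09% of probe sets passed with a positive slope. Adamts4, an inducible aggrecanase, ran from 4.96 over 5.55 to 6.48 in wt and from 4.91 over 5.64 to 6.16 in cre mice. Its difference was 0.03 (95% interval −0.38 to 0.44), with −0.30 in batch 1 and 0.36 in batch 2.

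**Figure D1:**
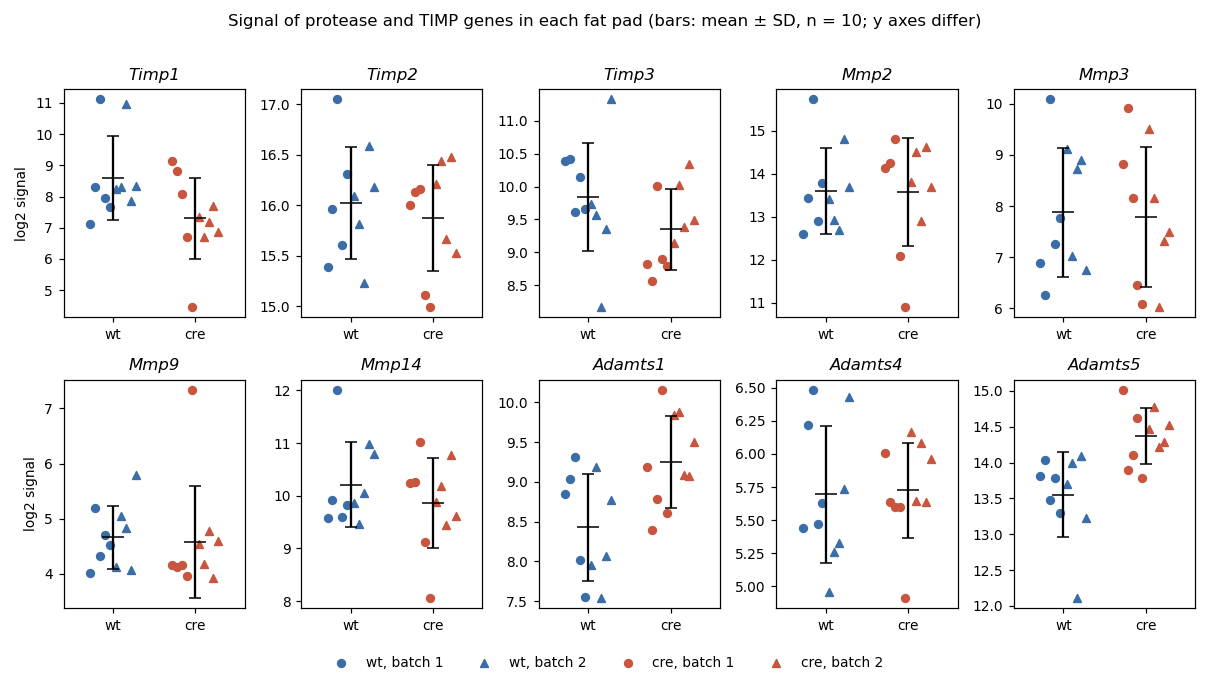
Log2 signal of each member gene in each fat pad, by genotype on the x axis, with circles for batch 1, triangles for batch 2 and bars for the mean ± SD (n = 10). The cre points of Adamts1 and Adamts5 sit higher than the wt points but overlap them, Timp1 has 2 high wt points near 11 and 1 low cre point at 4.45, and Mmp9 has 1 cre point at 7.33.

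**Figure D2:**
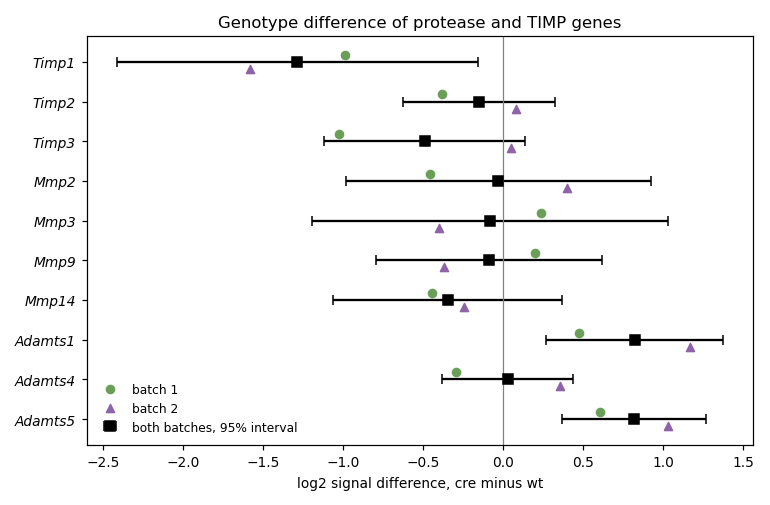
Difference in log2 signal, cre minus wt, for each member gene, with squares and 95% intervals from the limma fit over both batches, circles for batch 1 and triangles for batch 2. The intervals of Timp1, Adamts1 and Adamts5 lie to 1 side of 0, and the batch values of Timp2, Timp3, Mmp2, Mmp3, Mmp9 and Adamts4 lie on opposite sides of 0.

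RefSeq sequence before the annotated start (GRCm38.p6, 250 bases) was at hand for 6 of the 10 members. That of Adamts1 is shown because it is the one available for the pair that was higher in cre mice, on the minus strand at chr16:85803114-85803363. Capitals mark TATAAA, the core promoter element, which begins 32 bases before the start.
Adamts1: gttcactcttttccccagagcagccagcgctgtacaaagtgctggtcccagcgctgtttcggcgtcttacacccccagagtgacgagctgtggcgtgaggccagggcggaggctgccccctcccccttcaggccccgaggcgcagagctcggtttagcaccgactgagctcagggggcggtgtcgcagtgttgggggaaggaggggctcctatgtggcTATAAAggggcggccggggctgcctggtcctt
This match was found in 12.4% of all 32851 promoters searched on both strands.

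Across mice, 4 of the 10 members rose with Adgre1, the gene of the macrophage surface protein F4/80: Timp2, Mmp2, Mmp3 and Mmp14. In a limma fit with genotype and batch, these passed an adjusted p of 0.05 over all probe sets with a positive slope, as did 6.26% of probe sets. Of the members 0 passed with a negative slope, against 2.57% of probe sets, with Mmp9 at an unadjusted p of 0.0147. The slope is the log2 change of a gene for each log2 unit of Adgre1, which ran from 10.66 to 14.28 over the 20 mice. The median slope of the 10 members was 0.31, against −0.02 over all probe sets. In this fit 10 relations of members were examined, and all adjusted p-values are over 22205 probe sets.

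Mmp3 had a slope of 1.07 (SE 0.21, limma adjusted p = 0.00185) with r = 0.80 (permutation p = 0.00046) and rho = 0.82 (permutation p = 0.00033). Mmp2 had a slope of 0.94 (SE 0.18, limma adjusted p = 0.00119) with r = 0.76 (permutation p = 0.00276) and rho = 0.78 (permutation p = 0.00159). At the upper end, wt replicate 5 had the highest Adgre1, 14.28, and the highest values of Mmp2 and Mmp3, 15.72 and 10.08. At the other end, cre replicate 9 had the lowest Adgre1, 10.66, with 10.91 for Mmp2 and 6.08 for Mmp3. Single pads departed from the slope: wt replicate 2, with 13.71 for Adgre1, had 13.41 for Mmp2, and wt replicate 10, with 13.11 for Adgre1, had 6.75 for Mmp3. Mmp14 had a slope of 0.62 (SE 0.15, limma adjusted p = 0.0119) with r = 0.68 (permutation p = 0.00777) and rho = 0.68 (permutation p = 0.00557). Timp2 had a slope of 0.46 (SE 0.09, limma adjusted p = 0.00197) with r = 0.77 (permutation p = 0.00131) and rho = 0.75 (permutation p = 0.00187).

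The relation was closer in batch 1. There r was 0.95 for Mmp3, 0.87 for Mmp2, 0.81 for Mmp14 and 0.87 for Timp2, whereas in batch 2 it was 0.49, 0.39, 0.26 and 0.58. All 4 were positive in both batches, but in batch 2 alone (10 mice) 0 of 10 members passed an adjusted p of 0.05 by limma and 0 reached an unadjusted p under 0.05. Batch 1 holds the mice with the widest range of Adgre1. Without cre replicates 7 and 9, the mice farthest from the Adgre1 median, r was 0.71 for Mmp3, 0.58 for Mmp2, 0.49 for Mmp14 and 0.67 for Timp2. There 1 of 10 members, Mmp3, was past an adjusted p of 0.05 by limma. Shares of all probe sets were not taken for these smaller sets of mice. In wt mice alone r was 0.73, 0.64, 0.59 and 0.67, and in cre mice alone 0.87, 0.85, 0.76 and 0.89. Slopes did not pass a test of their difference between genotypes: by limma 0 of 10 members passed for the interaction with genotype, as did 0% of all probe sets, and 0 of 10 had an unadjusted p under 0.05, against 3.96% of probe sets.

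Timp1 had a slope of 0.72 (SE 0.28) that did not pass adjustment (limma adjusted p = 0.115). Its r was 0.54 (permutation p = 0.0475) and its rho 0.40 (permutation p = 0.133), with 0.80 in batch 1 and −0.30 in batch 2. Wt replicate 6, high in Timp1 and near the middle in Adgre1 (12.35), stood off this relation, and without it the slope was 0.87 (limma adjusted p = 0.00997). Other omissions lowered it: the slope was 0.45 without cre replicate 9 (limma adjusted p = 0.457), 0.50 without wt replicate 5 (limma adjusted p = 0.45) and 0.37 without cre replicates 7 and 9 (limma adjusted p = 0.697). With a mean of 13 other macrophage genes in place of Adgre1 the Timp1 slope was 1.10 (limma adjusted p = 0.0312), where 7.06% of probe sets passed with a positive slope. Against that mean, r of Timp1 was 0.81 in batch 1, −0.09 in batch 2 and 0.34 without cre replicates 7 and 9. Its rho was 0.52 (permutation p = 0.0606). Mmp9 had a slope of −0.46 (SE 0.17, limma adjusted p = 0.108) and r = −0.49 (permutation p = 0.0399). Its size rested on cre replicate 9, the mouse with the highest Mmp9: without that mouse the slope was −0.14 (limma adjusted p = 0.643), and without cre replicates 7 and 9 r was −0.36. The slopes of Timp3, Adamts1, Adamts4 and Adamts5 were 0.09, −0.02, 0.16 and 0.03, with adjusted p-values from 0.423 to 0.957 by limma.

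**Figure D3:**
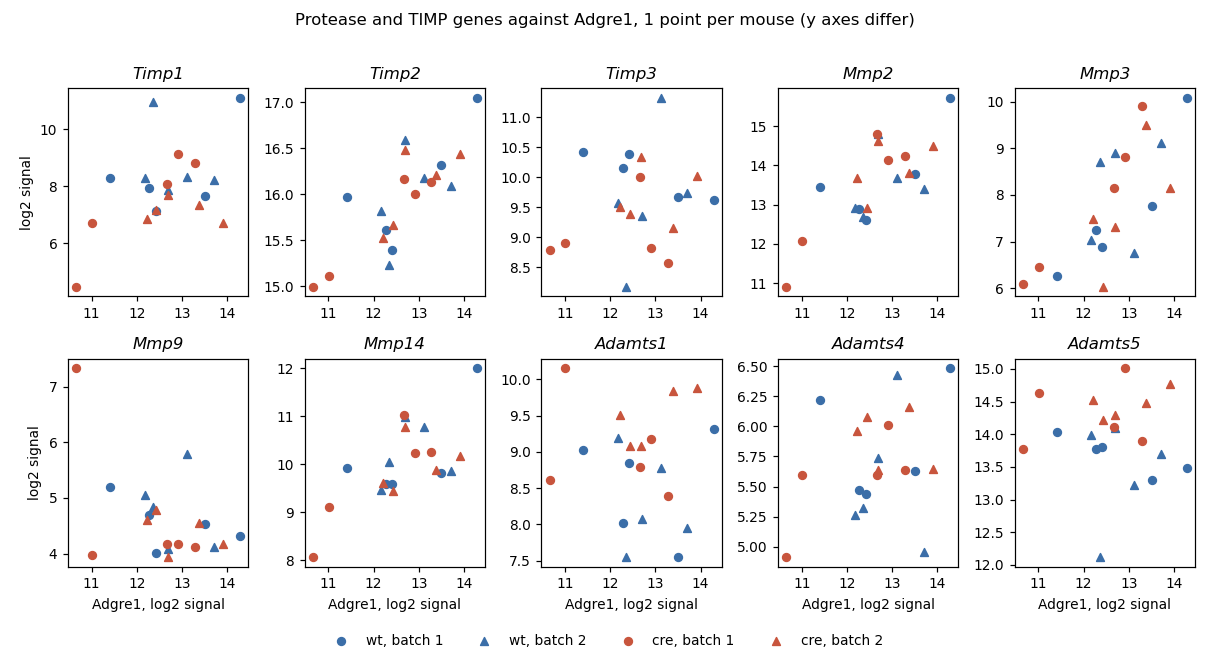
Log2 signal of each member gene on the y axis against log2 signal of Adgre1 on the x axis, 1 point per mouse, with colour for genotype and shape for batch. Timp2, Mmp2, Mmp3 and Mmp14 climb from cre replicates 9 and 7 on the left to wt replicate 5 on the right, while Timp3, Adamts1 and Adamts5 show no slope.

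Mmp2, Mmp14 and Timp2, the parts of the surface complex that activates the zymogen of MMP2, varied together more closely than any other members, among 45 pairs with a median r of 0.19. Mmp2 and Mmp14 had r = 0.95 (permutation p = 1e-05, the smallest that the resamples can give) and rho = 0.91 (permutation p = 6e-05). Mmp2 and Timp2 had r = 0.92 and rho = 0.95 (permutation p = 1e-05 each). Mmp14 and Timp2 had r = 0.84 (permutation p = 0.00014) and rho = 0.85 (permutation p = 2e-04). These were the 3 pairs with r over 0.8. The pattern held in each batch, with 0.97, 0.96 and 0.91 in batch 1 and 0.85, 0.88 and 0.72 in batch 2. Without the 2 mice farthest from the median of the first gene, taken as Mmp2 for the first pair and Timp2 for the others, r was 0.88, 0.91 and 0.75.

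With Mmp2 as the covariate of a limma fit over all probe sets, Mmp14 had an adjusted p of 6.4e-06 and Timp2 of 8.7e-05, where 5.81% of probe sets passed with a positive slope. Mmp14 rose by 0.69 and Timp2 by 0.44 for each log2 unit of Mmp2. On 1 array the signal of Mmp2 minus that of Mmp14 had an SD of 0.44 within genotype and batch, against 1.16 for Mmp2 alone and 0.88 for Mmp14 alone. Mmp3 was also related to Mmp2 (r = 0.70, permutation p = 0.00488, rho = 0.71, permutation p = 0.00457), but r was 0.87 in batch 1 and 0.32 in batch 2. Timp1 and Mmp14 had r = 0.70 (permutation p = 0.0135, rho = 0.62, permutation p = 0.0129), with 0.92 in batch 1 and −0.07 in batch 2.

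Upstream sequence was at hand for 2 of the 3 genes of this complex and for Mmp3. It is given here because Timp2, Mmp14 and Mmp3 were all among the members that rose with Adgre1. Timp2 lies on the minus strand (chr11:118355412-118355661), Mmp14 on the plus strand (chr14:54431348-54431597) and Mmp3 on the plus strand (chr9:7445572-7445821). Capitals mark TGANTCA, the AP-1 motif, and TATAAA.
Timp2: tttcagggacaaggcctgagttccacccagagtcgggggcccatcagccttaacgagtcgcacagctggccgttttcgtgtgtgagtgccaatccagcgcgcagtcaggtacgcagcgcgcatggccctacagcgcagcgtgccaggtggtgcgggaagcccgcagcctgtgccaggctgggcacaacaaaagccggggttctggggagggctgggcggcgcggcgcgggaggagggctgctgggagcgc
Mmp14: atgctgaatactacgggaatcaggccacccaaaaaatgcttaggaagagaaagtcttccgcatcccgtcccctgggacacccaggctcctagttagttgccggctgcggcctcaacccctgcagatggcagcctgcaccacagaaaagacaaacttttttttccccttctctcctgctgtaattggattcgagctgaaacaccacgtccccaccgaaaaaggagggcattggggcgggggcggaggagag
Mmp3: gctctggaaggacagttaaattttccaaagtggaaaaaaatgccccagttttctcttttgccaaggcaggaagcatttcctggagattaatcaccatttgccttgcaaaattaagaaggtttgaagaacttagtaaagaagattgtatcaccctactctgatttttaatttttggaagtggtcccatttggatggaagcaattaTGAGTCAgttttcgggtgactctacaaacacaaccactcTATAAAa
The stretch of Mmp3 held 1 AP-1 match, beginning 46 bases before the start, while those of Timp1, Timp2, Timp3, Mmp14 and Adamts1 held 0. An AP-1 match was found in 6.75% of all promoters, both strands searched, and the κB consensus, found in 3.9%, had 0 matches in the 6 members. The stretches differed in composition: 68.0% of bases were G or C in Timp2 and 37.6% in Mmp3, against a median of 52.4% over all promoters.

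Set against marker lists of the cell types of fat, the genes of the MMP2 complex followed the list of progenitors and fibroblasts most closely. The mean of its 12 measured genes, among them Pdgfrb, Dpp4, Lum and Col1a1, was related to Mmp2 with r = 0.92 (permutation p = 2e-05, rho = 0.91, permutation p = 4e-05), to Timp2 with r = 0.91 (permutation p = 1e-05, rho = 0.91, permutation p = 3e-05) and to Mmp14 with r = 0.90 (permutation p = 2e-05, rho = 0.87, permutation p = 4e-05). In limma fits over all probe sets the adjusted p-values were 2.1e-05, 0.000211 and 0.000105, and with Timp1 and Mmp3 (adjusted p = 0.0247 and 0.0414) 5 of 10 members passed with a positive slope, against 5.23% of probe sets. For Mmp2, Timp2 and Mmp14 r was 0.94, 0.94 and 0.93 in batch 1, and 0.83, 0.92 and 0.78 in batch 2. Without the 2 mice farthest from the list median it was 0.84, 0.87 and 0.77. Timp1 and Mmp3 held less well. Their r was 0.92 and 0.77 in batch 1, −0.31 and 0.31 in batch 2, and 0.20 and 0.33 without those 2 mice. The list itself was related to Adgre1 (r = 0.68, permutation p = 0.0108, rho = 0.70, permutation p = 0.00623). With both in 1 fit, the slopes on Adgre1 were 0.32 for Mmp2, 0.18 for Timp2, 0.10 for Mmp14 and 0.90 for Mmp3, and 0 of 10 members passed an adjusted p of 0.05 by limma, while Mmp2 and Mmp3 had an unadjusted p under 0.05 (0.0367 and 0.00547).

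Mmp3 and Timp1 fell as adipocyte genes rose. The mean of 13 adipocyte genes, Adipoq, Plin1 and Lep among them, was related to Mmp3 with r = −0.72 (permutation p = 4e-05, rho = −0.77, permutation p = 3e-05) and to Timp1 with r = −0.74 (permutation p = 0.00274, rho = −0.53, permutation p = 0.0292). Both passed in limma fits (adjusted p = 0.00401 and 0.00243), as did 3.63% of probe sets with a negative slope. In batch 1 r was −0.90 for Mmp3 and −0.76 for Timp1, and in batch 2 −0.53 and −0.84. Without the 2 mice farthest from the list median, r was −0.85 for Mmp3 and −0.41 for Timp1. Mmp2, Timp2 and Mmp14 also had negative r with this list (−0.40, −0.32 and −0.46), which did not pass adjustment by limma. Their r was −0.64, −0.80 and −0.46 without the 2 farthest mice. When wt replicate 6 was omitted, it was −0.74, −0.85 and −0.68, against −0.86 for Mmp3 and −0.66 for Timp1. Timp3 and Adamts5 had positive r with the same list (0.57 and 0.56) that did not pass adjustment (limma adjusted p = 0.0781 and 0.0911), where 4.63% of probe sets did. Their r was 0.22 and 0.04 without the 2 mice farthest from the list median, and 0.30 and 0.14 without wt replicate 6. In cre mice alone it was −0.03 and −0.12.

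Timp3 was most closely related to the endothelial list (r = 0.73, permutation p = 0.00264, rho = 0.72, permutation p = 0.00139, limma adjusted p = 0.0295), where 1.39% of probe sets passed with a positive slope. Mmp3 had a negative slope on it (limma adjusted p = 0.0473, passed by 0.675% of probe sets). The relation of Timp3 held with 0.55 in batch 1, 0.87 in batch 2 and 0.62 without the 2 mice farthest from the list median. Mmp9 had its highest r with the neutrophil list (0.70, permutation p = 0.00467, rho = 0.50, permutation p = 0.0426), but it did not pass adjustment (limma adjusted p = 0.362, passed by 0.0135% of probe sets) and r was 0.32 without the 2 mice farthest from the list median. In all, 80 relations of members to 8 lists were examined, and what each cell type contributed to a member's signal was not tested.

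**Figure D4:**
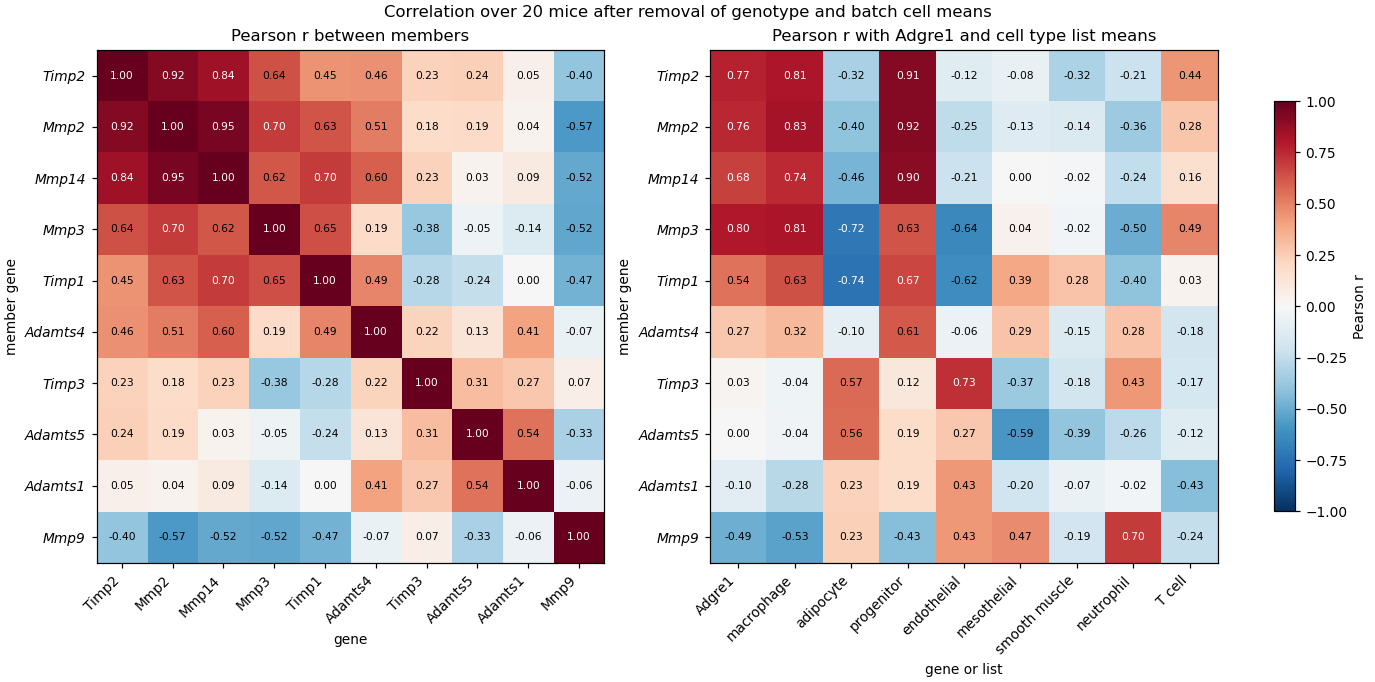
Pearson r over 20 mice, after the means of the 4 genotype and batch groups were removed, between member genes (left) and of member genes with Adgre1 and 8 cell type list means (right), on a colour scale from −1 to 1. Timp2, Mmp2 and Mmp14 form a block with r from 0.84 to 0.95. They have 0.90 to 0.92 with the progenitor list and 0.74 to 0.83 with the macrophage list. With the adipocyte list Mmp3 and Timp1 have −0.72 and −0.74, and Timp2, Mmp2 and Mmp14 have −0.32, −0.40 and −0.46.

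The genes most like each member across mice were sought by r after removal of the genotype and batch means. The search covered 18541 genes, with predicted Gm genes and Rik clones left out. For Mmp2 they were Lum, the keratan sulfate proteoglycan lumican (r = 0.97), the small GTPase gene Rhoj (0.95) and the mesenchymal transcription factor gene Prrx1 (0.95). For Timp2 they were the complement protease gene C1ra (0.97), the endocytic adaptor gene Dab2 (0.96) and Aebp1, which encodes an extracellular collagen-binding protein (0.94). Mmp14 had Mmp2, Rhoj and Lum as its nearest genes (0.95, 0.93 and 0.92). Mmp3 stood nearest to Stap1 (0.96), the zinc transporter gene Slc39a6 (0.95) and Fyb, an adaptor of haematopoietic cells (0.93). Timp1 was nearest to Plp2 (0.93), Tppp3 (0.90) and the calreticulin gene Calr (0.90). Adamts5 was nearest to Lpgat1 (0.89), Megf9 (0.89) and the leptin gene Lep (0.88), and Adamts1 to Mettl21a (0.91), Prdm8 (0.81) and Enkd1 (0.80). Timp3 was nearest to Ablim1 (0.84), Cyyr1 (0.84) and Abcc9 (0.83), Adamts4 to Vps37b (0.82), Pdpn (0.80) and Tnxb (0.78), and Mmp9 to Apol11b (0.87), Ngp (0.86), a neutrophil granule gene, and Mapk8ip3 (0.86). These are the highest of many values and carry no test.

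The wider protease system was described with 74 other genes in 5 lists. By limma 0 of 74 passed adjustment for genotype and 0 had an unadjusted p under 0.05, against 6.29% of all probe sets, with 44 higher and 30 lower in cre mice and a median difference of 0.06. For Adgre1, 14 of 74 passed with a positive slope, against 6.26% of all probe sets, and 0 with a negative slope, against 2.57%. An unadjusted p under 0.05 was found for 4 with a negative slope. For counts at an unadjusted p in the Adgre1 fit, the share of all probe sets was not taken, and nothing is read from them. Small p-values were common there: Timp1, with an unadjusted p of 0.0164 by limma, ranked 3153 of 22205 probe sets. Of the 17 other matrix metalloproteases 2 passed, Mmp12, the macrophage elastase (slope 0.75, limma adjusted p = 0.00121), and the collagenase Mmp13 (0.39, limma adjusted p = 0.0451). Of the 15 other ADAMTS genes 0 passed and 5 had an unadjusted p under 0.05, Adamts12 having the smallest (slope 0.38, limma adjusted p = 0.08). Of the 11 inhibitors and activators 3 passed: Plau, which encodes urokinase (0.69, limma adjusted p = 0.000169), its receptor gene Plaur (0.47, limma adjusted p = 0.0217) and Furin, a convertase that removes the propeptide of MMP14 (0.29, limma adjusted p = 0.0247). Timp4, the fourth inhibitor, had a slope of −0.80 that did not pass (limma adjusted p = 0.0923).

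Of the 11 genes of ADAM sheddases and their partners 4 passed, among them Adam8 (slope 1.29, limma adjusted p = 5.1e-07), Adam19 (0.68, limma adjusted p = 0.000329) and Adam17 (0.45, limma adjusted p = 0.00203), the TNF-α sheddase that TIMP3 inhibits. Adam17 itself differed by −0.02 between genotypes, from 12.29 ± 0.50 in wt to 12.27 ± 0.55 in cre mice (SD, n = 10 each). Of the 20 matrix substrates 5 passed, led by the proteoglycan genes Bgn (0.44, limma adjusted p = 0.00371), Lum (0.76, limma adjusted p = 0.00505) and Dcn (0.36, limma adjusted p = 0.0185). Mmp8, the neutrophil collagenase, had a slope of −0.10 (limma adjusted p = 0.617).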

How the data were processed

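Total RNA of 20 fat pads was amplified and labelled with a whole-transcript kit, per the labels. Values as deposited by the authors are log2 signals of 22206 probe sets an array. The submitters' processing notes name RMA, mm10 and Transcriptome Analysis Console 4.0.2.15. Whether a batch adjustment was made is not stated and was not tested. In the deposited values 0% of all probe sets passed an adjusted p of 0.05 for batch by limma. RMA brings arrays close to 1 distribution (medians 6.49 to 6.58 here) and hides a shift common to most genes. Background compresses differences of dim genes. Names came from the platform annotation (19572 with 1 symbol, 2634 unnamed here), and the one with the highest mean stood for a gene.

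Genotype and batch came from the titles, which call the samples biological replicates. Fits used limma 3.58.1 in R 4.3.3 with genotype and batch as terms, and with Adgre1, a list mean or a member as a further covariate, adjusted by Benjamini-Hochberg over all probe sets. Differences are cre minus wt, with 95% intervals of the fit. On 10 simulated data sets of 22206 probe sets with 200 changed, the genotype fit recovered 34.6% of 1.5-fold, 83.0% of 2-fold and 98.0% of 4-fold changes, and the Adgre1 fit 83.9%, 97.6% and 99.5% of such slopes. Simulated noise was independent between probe sets, with SDs taken after Adgre1 was fitted, a term that the genotype fit lacks. Changed probe sets were drawn from all. Members had SDs at percentiles from 64.9 (Adamts4) to 99.2 (Timp1), and recovery for them was not measured. Correlations used values after removal of the 4 genotype and batch means, with 100000 two-sided permutations within these groups (Python 3.11.15, NumPy 2.4.6). The number of mice limits the precision.

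Members and lists were chosen with earlier results of these data known. Named genes were the members, set genes of interest, up to 3 genes of each list with the smallest p, and the 3 nearest genes of each member. Relations to list means and between members, and fits with the progenitor list as a covariate, were added after the values were seen. Replicate numbers were not taken to pair the mice: of 10 pairs, 4 had correlated deviations over 0.1 (range −0.30 to 0.34). Mice of different numbers were not compared, so this check cannot exclude a pairing.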

Additional observations from a re-analysis of the deposited data

Results flagged for a closer look

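In groups of 10 mice, some members had a single mouse that stood further from the rest than Dixon's 95% limit allows, a limit that chance passes in about 1 of 20 groups; 34 groups of 17 genes were looked at and 5 values passed. In cre replicate 9, Timp1 was lowest at 4.45 (2.24 below the next cre mouse), Adamts4 was lowest at 4.91 (0.69 below) and Mmp9 was highest at 7.33 (2.55 above). In cre replicate 7, Mmp13 was lowest at 4.66 (1.02 below). In wt replicate 6, Adamts5 was lowest at 12.12 (1.11 below). Cre replicates 9 and 7 also had the lowest Adgre1, 10.66 and 11.01, and wt replicate 6 was the array with a high signal of seminal vesicle genes.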

How the results depend on the processing

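For genotype, the count of members past an adjusted p of 0.05 was 0 under all alternatives run, and the count with an unadjusted p under 0.05 and 1.5-fold lay between 2 and 4. Adamts5 (0.60 to 1.03), Adamts1 (0.47 to 1.17) and Timp1 (−1.58 to −0.73) kept their direction under each of these and when single mice were left out. For Adgre1, the 4 members past adjustment became 0 in batch 2 alone and 0 in wt mice alone (4 with an unadjusted p under 0.05 by limma). Without the 2 mice farthest from the Adgre1 median 1 passed, and with the progenitor list as a covariate in all 20 mice 0 passed. Omission of any 1 mouse gave counts between 3 and 5. In batch 1 alone and in cre mice alone 5 passed, Timp1 among them. Each batch and each genotype holds 10 of the 20 mice. Shares of all probe sets were not taken under these settings, so the changes in count are not read as particular to the members. Their cause was not tested. Beside those settings, Mmp14 lost its call without wt replicate 5 (slope 0.47), cre replicate 9 (0.50) or the 5 mice with genes of other tissues (0.52), with array weights (0.50) and with the adipocyte list as a covariate (0.54). Timp1 came past without wt replicate 6 (0.87) but fell to 0.45 without cre replicate 9. Mmp9 came past without cre replicate 7 (−0.60) but was −0.14 without cre replicate 9 and −0.15 without the mice with genes of other tissues. With the replicate block, which treats wt and cre mice of the same number as a pair, the genotype differences did not move. In that fit Mmp3 lost its call (slope 0.91, limma adjusted p = 0.121), and the Adamts5 slope was −0.039.

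Slopes that changed sign, for causes not tested, were those of Timp1 in batch 2 alone (−0.42), of Timp3 in batch 1 alone (−0.12), with array weights (−0.0077), without the mice with genes of other tissues (−0.044), in wt mice alone (−0.036) and without the 2 farthest mice (−0.058), of Adamts1 in batch 2 alone (0.13), with the adipocyte list as a covariate (0.081) and without the 2 farthest mice (0.021), and of Adamts4 in batch 2 alone (−0.057) and with the progenitor list (−0.076). That of Adamts5 turned in batch 1 alone (−0.072), after quantile normalization (−0.0091), with array weights (−0.051), without the least correlated array (−0.045), without those mice with genes of other tissues (−0.094), in wt mice alone (−0.12), without the 2 farthest mice (−0.059), with no genotype term (−0.046) and with the progenitor list (−0.091). When single mice were left out, it ran from −0.064 to 0.080 for Adamts5 and from −0.19 to 0.087 for Adamts1. Mmp9 was too dim to remain after the filter on the 7402 probe sets of lowest mean. Signal over background limits Mmp9 and Adamts4.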
